A study of Mus musculus with 8 samples.

Results

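The 36 genes described here make, sense, take up, store and export cholesterol, and were measured in the whole mouse aorta by RNA-seq. They were chosen by name: 17 synthesis enzymes, 5 genes of sterol sensing and transcription, 2 genes of lipoprotein uptake, 4 of lysosomal release and sterol transfer, 2 of storage as cholesteryl ester, and 6 of efflux. All 36 were found among the 48607 loci of the table, and where a name appeared at several loci the locus with the largest summed count was taken. Of the 36, 34 had at least 1 FPKM (fragments per length of transcript, scaled to library depth) in at least 3 libraries and were tested among 20506 loci. Hsd17b7 and Stard4 did not pass that filter and are given by their values.

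The study asked how loss of natriuretic peptide receptor C (NPRC, gene Npr3), a clearance and signalling receptor for natriuretic peptides, affects the atherosclerotic aorta. All mice lacked apolipoprotein E and were fed a Western diet for 12 weeks. ApoE-/- mice have remnant lipoproteins in the blood and lesions of lipid-laden macrophages. The ApoE-/-NPRC-/- mice also carried a frameshift made by CRISPR in exon 1 of Npr3 in every tissue, on a C57BL/6 background, and were littermates of the ApoE-/- mice. The ApoE-/- mice bought for the study were young males, while the age and sex of the crossed littermates that were sequenced are not given in the sources used here. The whole aorta holds all of its cell types in 1 sample. By title, 5 libraries were ApoE-/- (1 to 5) and 3 were ApoE-/-NPRC-/- (1 to 3). The study's methods describe groups of equal size, so some ApoE-/-NPRC-/- aortas that they mention were not analysed here.

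The labels of 4 of the 8 libraries conflict. The genotype entered for the libraries titled ApoE-/- 4 and 5 was ApoE-/-NPRC-/-, and the genotype entered for those titled ApoE-/-NPRC-/- 1 and 2 was ApoE-/-. Npr3, the mutated gene, ranged from 0.62 to 1.69 FPKM over ApoE-/- 1 to 5 and from 1.13 to 1.39 over ApoE-/-NPRC-/- 1 to 3. It did not settle the question, because a frameshift need not lower the RNA and the groups overlapped under both labels. Groups below are those of the title unless the genotype entry is named, and the ones by genotype entry are given beside them.

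Cells keep their cholesterol within narrow limits. When sterols in the membrane of the endoplasmic reticulum are low, SCAP carries the SREBP factors (Srebf1, Srebf2) to the Golgi, where they are cleaved and then switch on the synthesis enzymes, while INSIG proteins hold SCAP back when sterols are plentiful. Excess sterol instead activates the liver X receptors (LXR, Nr1h2 and Nr1h3), which switch on export through Abca1 and Abcg1. In macrophages of the artery wall, lysosomes free the cholesterol of engulfed lipoproteins, Soat1 stores it as ester droplets, and foam cells result where uptake exceeds export.

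RefSeq promoters, from 250 bases before to 50 bases after an annotated start in GRCm38.p6, were matched to 30 of the 36 genes. Those of Fdft1, Stard4, Fdps, Npc1, Sqle and Abcg1 were not matched. They were searched on both strands for the CCAAT box, at which NF-Y binds beside SREBP (letters CCAAT), for a core of the sterol response element (TCACNCCAC) and for an LXR direct repeat (GGTNA, then any 5 bases, then GGTCA). No match of one motif in the stretches below overlaps a match of another, and a match is a run of letters and not a measured site. The stretches below show how the promoters of genes at the centre of synthesis (Hmgcs1), sensing (Insig1, Srebf1), efflux (Abca1), lipid transfer (Pltp) and storage (Soat1) differ in these letters. They read in the direction of transcription, and capitals mark the motifs. ATTGG is CCAAT on the other strand, and a run that begins with TGACC is the LXR repeat on the other strand.
Hmgcs1 (chr13:119690101-119690326, plus strand): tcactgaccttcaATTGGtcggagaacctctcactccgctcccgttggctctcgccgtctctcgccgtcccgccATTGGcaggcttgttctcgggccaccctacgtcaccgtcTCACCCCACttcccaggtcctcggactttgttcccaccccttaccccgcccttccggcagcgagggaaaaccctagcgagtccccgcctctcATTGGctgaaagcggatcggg
Insig1 (chr5:28071181-28071216, plus strand): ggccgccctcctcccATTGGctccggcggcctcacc
Srebf1 (chr11:60210481-60210668, minus strand): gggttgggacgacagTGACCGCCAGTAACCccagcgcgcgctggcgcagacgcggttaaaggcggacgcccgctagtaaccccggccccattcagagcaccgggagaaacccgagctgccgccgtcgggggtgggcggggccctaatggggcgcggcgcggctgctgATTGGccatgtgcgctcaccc
Abca1 (chr4:53159932-53159977, minus strand): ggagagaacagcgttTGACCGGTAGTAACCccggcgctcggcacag
Pltp (chr2:164857870-164857905, minus strand): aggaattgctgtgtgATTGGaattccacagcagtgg
Soat1 (chr1:156474338-156474373, minus strand): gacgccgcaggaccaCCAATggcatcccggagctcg

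The CCAAT box was in the promoter of 25 of the 30 matched genes, against 41.1% of all 27025 genes with a promoter. All 14 matched synthesis enzymes held it, as did 4 of the 5 sensing genes and 5 of the 9 matched genes of lysosomal release, storage and efflux (Npc2, Lipa, Soat1, Nceh1 and Pltp). The sterol response core was in Hmgcs1 alone, beside 1.44% of all genes, and the Hmgcs1 stretch above holds it between CCAAT boxes. The LXR repeat was in Abca1 and Srebf1, beside 0.226% of all genes. Its letters were loosened so that they took in the element known in Abca1, and the motif was chosen after seeing the data. Neither match is therefore a finding. These shares describe sequence and were not tested.

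The total count was 62969165 to 86693276 per library, and no pair of libraries had counts that agreed within sampling noise (smallest mean chi-square per locus 142.2). The series' design text counts as many mice as there are libraries, so p-values measure the spread between mice. The markers of the tissue were present: summed over the list, smooth muscle genes had 1353 to 2995 FPKM, endothelial genes 96.3 to 112, fibroblast genes 561 to 1771 and macrophage genes 352 to 2327. Fat was present too, with 139 to 663 FPKM for brown fat genes and 147 to 683 for white fat genes, as were Schwann cell genes (25.2 to 40.9), red blood cell genes (112 to 1805) and skeletal muscle genes (1.09 to 15.6).

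By title, 8 of the 34 tested genes had an unadjusted p under 0.05, and all 8 were lower in ApoE-/-NPRC-/- libraries. Over all tested loci, 7.13% were lower at that threshold and 6.51% were higher. The 8 were Npc1, Npc2, Lipa, Soat1, Nceh1, Abcg1, Nr1h3 and Pltp, each from the lysosomal, storage or efflux groups. Together these groups had 11 tested genes, of which 9 had a log2 fold change below 0, 8 of them at that threshold. The median log2 fold change of the 11 was -0.70, beside -0.01 for all loci. Among the 11 are 2 shared loci, that of Apoe (deleted in all mice) with Tomm40 and that of Nr1h3 with Madd and Gm13783. None of the 16 tested synthesis enzymes, 5 sensing genes or 2 uptake genes passed the same threshold. With edgeR's quasi-likelihood test and Benjamini-Hochberg adjustment over all loci, 0 of the 34 genes (0% of all loci) had an adjusted p under 0.05, and the smallest was 0.27, for Pltp. Nceh1 and Pltp also met the study's criterion for lower genes, a fold below 0.5 with an unadjusted p under 0.05, beside 2.39% of all loci. DESeq2 called 1 of the 34 (Pltp, adjusted p = 0.033, beside 3.17% of all loci), limma called 0 (0.00975% of all loci), and limma with library weights called 6 (Lipa, Soat1, Nceh1, Abcg1, Nr1h3 and Pltp, beside 5.7%).

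By genotype entry, 0 of the 34 genes had an unadjusted p under 0.05 with edgeR (1.31% of all loci did), and the smallest was 0.22. DESeq2 and limma also gave 0 at that threshold, and no gene was lower without overlap, beside 0.566% of all loci. The 11 lysosomal, storage and efflux genes had a median log2 fold change of -0.07 under this grouping. They lay between -0.20, at the locus shared by Apoe and Tomm40, and -0.00. The differences seen by title were not detected under the other label. Only ApoE-/- 4 and 5 and ApoE-/-NPRC-/- 1 and 2 change sides between the labels, and the RNA table alone does not tell which label is right.

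**Figure D1:**
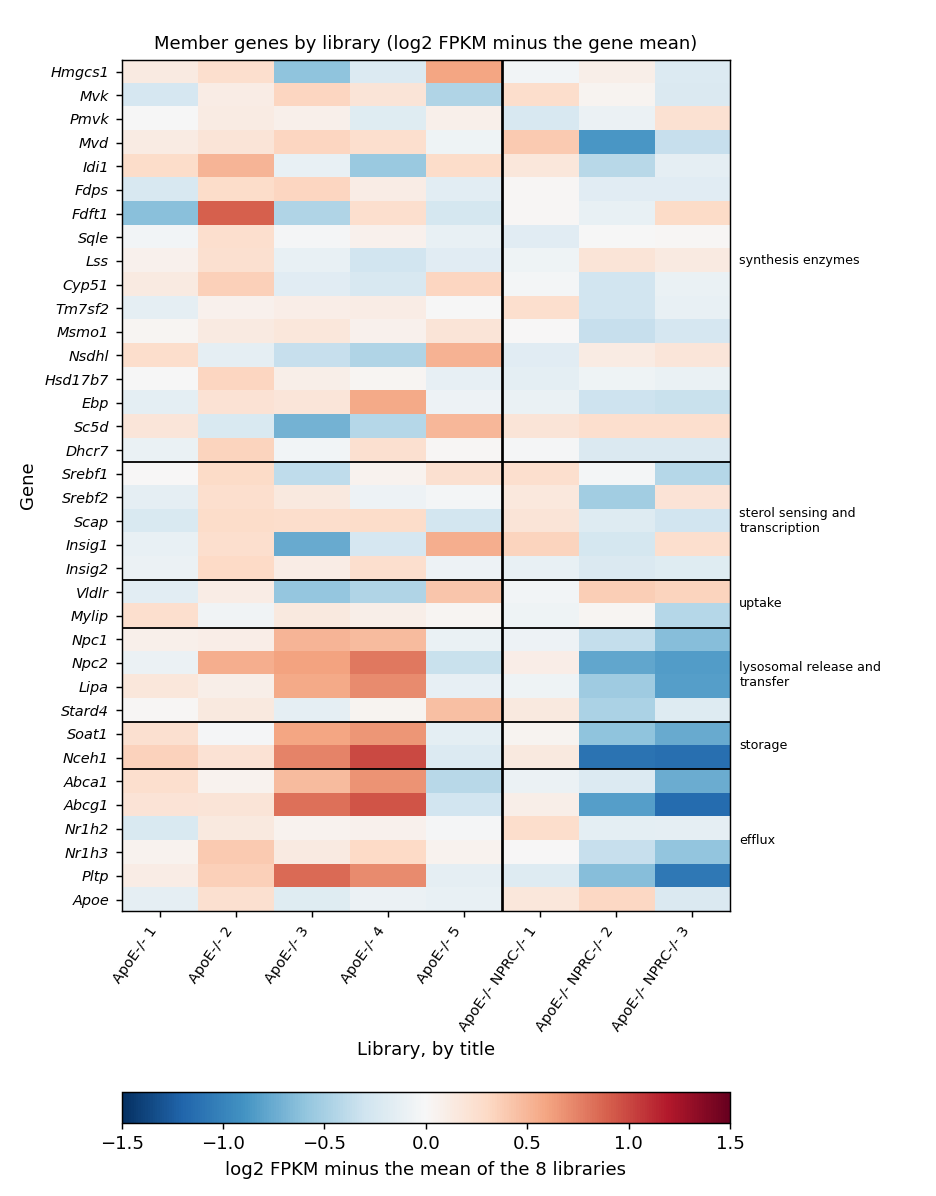
Heat map of the log2 FPKM of each of the 36 genes (rows, by role) in each of the 8 libraries (columns, by title), minus the mean of the gene over the 8 libraries. Most lysosomal, storage and efflux rows run from red in ApoE-/- 3 and 4 to blue in ApoE-/-NPRC-/- 2 and 3, except Stard4, Nr1h2 and Apoe. The synthesis rows have no such run.

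The synthesis enzymes were expressed at a low level and differed little between groups. Over the 8 libraries, their mean FPKM ran from 0.976 (Hsd17b7) to 5.94 (Hmgcs1). By title their log2 fold changes lay between -0.41 (Ebp) and 0.35 (Sc5d), with a median of -0.08. Of the 16 tested, 11 values were below 0 and 5 above.

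Hmgcs1, the synthase that commits acetyl groups to the pathway, had an FPKM of 6.33, 6.87, 3.81, 5.01 and 8.74 in ApoE-/- 1 to 5 and 5.62, 6.14 and 5.03 in ApoE-/-NPRC-/- 1 to 3. The ApoE-/- libraries held both the highest and the lowest value, so the groups overlapped. Its log2 fold change was -0.10 (SE 0.21, 95% interval -0.57 to 0.37, adjusted p = 0.86). Sqle, which oxidises squalene and is a control point of the pathway, had an FPKM of 1.48, 1.81, 1.5, 1.59 and 1.41 in ApoE-/- 1 to 5 and 1.35, 1.51 and 1.54 in ApoE-/-NPRC-/- 1 to 3. Its highest library was 1.34 times its lowest, the narrowest range among the 36 genes, and the log2 fold change was -0.06 (SE 0.15, 95% interval -0.39 to 0.27, adjusted p = 0.88).

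Msmo1, a methyl oxidase that removes methyl groups from the sterol ring, had an FPKM of 1.51, 1.63, 1.67, 1.55 and 1.69 in ApoE-/- 1 to 5 and 1.48, 1.16 and 1.24 in ApoE-/-NPRC-/- 1 to 3. The groups did not overlap in FPKM but did in log2 CPM (counts scaled to library size by the trimmed mean of M values, TMM). Its log2 fold change was -0.30 (SE 0.14, adjusted p = 0.39). Ebp, a sterol isomerase, ranged from 4.34 to 7.10 FPKM in ApoE-/- and from 3.79 to 4.49 in ApoE-/-NPRC-/-, with a log2 fold change of -0.41 (SE 0.21, adjusted p = 0.43).

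The upper mevalonate enzymes Mvk and Pmvk had log2 fold changes of 0.03 and -0.02. The decarboxylase Mvd had -0.34 and the isomerase Idi1 -0.20. Mvd was lowest in ApoE-/-NPRC-/- 2, at 0.69 FPKM, and highest in ApoE-/-NPRC-/- 1, at 1.66. The farnesyl synthase Fdps shares its locus with Rusc1 and Gm43738, and this locus had a log2 fold change of -0.17.

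Fdft1, which joins farnesyl groups into squalene, had 0.03, with its highest FPKM in ApoE-/- 2 (6.89) and its lowest in ApoE-/- 1 (2.40), both of the same titled group. In the part of the pathway that shapes the sterol ring, Lss had a log2 fold change of 0.16, Cyp51 -0.20, Nsdhl 0.07, Sc5d 0.35 and Dhcr7 -0.22. The locus of Tm7sf2, a sterol reductase, also carries Vps51, Zfpl1 and Gm28374, and had a log2 fold change of -0.05. Hsd17b7 had 0.89 to 1.21 FPKM in ApoE-/- and 0.88 to 0.93 in ApoE-/-NPRC-/-. The lowest p of the 16 tested enzymes was that of Msmo1.

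The genes of sterol sensing were also close to equal in the titled groups, with 0 of 5 at an unadjusted p under 0.05. Srebf2, the SREBP gene that chiefly drives cholesterol synthesis, had an FPKM of 6.28, 8.16, 7.59, 6.52 and 6.75 in ApoE-/- 1 to 5 and 7.70, 4.81 and 7.91 in ApoE-/-NPRC-/- 1 to 3. ApoE-/-NPRC-/- 2 was lowest of all libraries and ApoE-/-NPRC-/- 3 was second only to ApoE-/- 2, so the groups overlapped. Between groups the log2 fold change was -0.03 (SE 0.20, 95% interval -0.47 to 0.41, adjusted p = 0.97). Without ApoE-/-NPRC-/- 2 it was 0.20.

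Srebf1, which chiefly drives fatty acid synthesis and whose locus also carries Mir6921 and Mir6922, had an FPKM of 10.67, 13, 8.21, 11.02 and 12.58 in ApoE-/- 1 to 5 and 12.65, 10.45 and 7.95 in ApoE-/-NPRC-/- 1 to 3. The groups spanned nearly the same range. Its log2 fold change was -0.08 (SE 0.17, adjusted p = 0.86).

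Insig1, itself a target of SREBP, had an FPKM of 11.86, 15.27, 7.58, 10.74 and 18.70 in ApoE-/- 1 to 5 and 16.08, 10.63 and 15.20 in ApoE-/-NPRC-/- 1 to 3. Both the highest and the lowest library were ApoE-/-. Its log2 fold change was 0.17 (SE 0.25, 95% interval -0.41 to 0.74, adjusted p = 0.80). Insig2, the paralog that is controlled separately, had an FPKM of 5.50, 7.19, 6.31, 6.96 and 5.52 in ApoE-/- 1 to 5 and 5.40, 5.00 and 5.16 in ApoE-/-NPRC-/- 1 to 3. In FPKM the groups just failed to overlap, whereas in TMM-scaled log2 CPM they did, and the log2 fold change was -0.26 (SE 0.16, adjusted p = 0.47). Scap had -0.16 (SE 0.21).

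Uptake was represented by 2 genes. Vldlr, a receptor of triglyceride-rich lipoproteins, had an FPKM of 5.21, 6.27, 3.87, 4.25 and 7.72 in ApoE-/- 1 to 5 and 5.62, 7.51 and 7.32 in ApoE-/-NPRC-/- 1 to 3. ApoE-/- 3 and 4 were lowest and ApoE-/- 5 highest, so the groups overlapped. The log2 fold change was 0.36 (SE 0.21, 95% interval -0.11 to 0.83, adjusted p = 0.46). Mylip, an LXR target that marks lipoprotein receptors for degradation, had -0.23 (SE 0.14, adjusted p = 0.48).

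**Figure D2:**
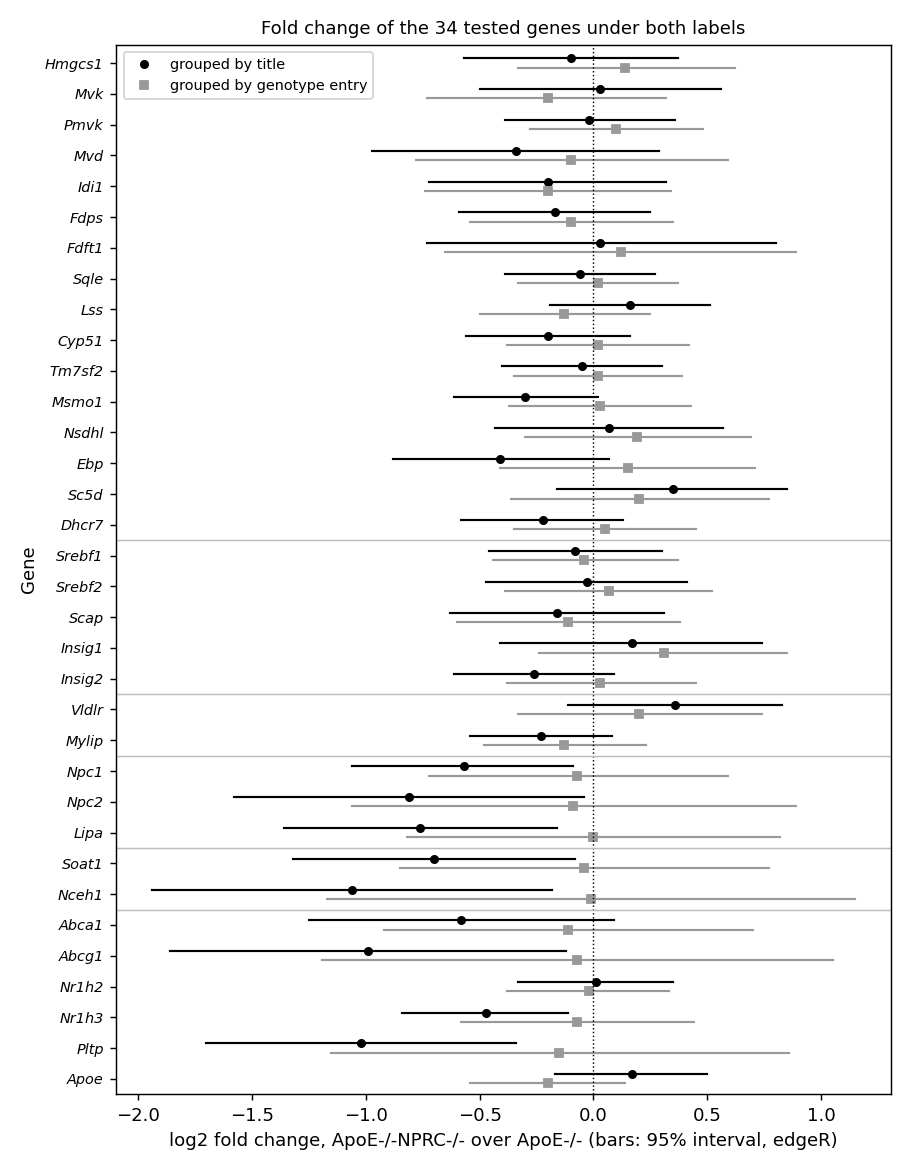
Log2 fold change of the 34 tested genes with the 95% interval of edgeR's fit (x axis, ApoE-/-NPRC-/- over ApoE-/-), grouped by title (black circles) and by genotype entry (grey squares). By title, 8 intervals lie below 0, all in the lysosomal, storage and efflux rows at the bottom, and by genotype entry every interval includes 0.

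The genes that free cholesterol in the lysosome were lower by title, all 3 tested at an unadjusted p under 0.05. Lipa, the acid lipase that splits cholesteryl esters, had an FPKM of 23.21, 21.88, 30.54, 33.77 and 18.96 in ApoE-/- 1 to 5 and 19.75, 14.19 and 11.66 in ApoE-/-NPRC-/- 1 to 3. ApoE-/-NPRC-/- 1 lay just above ApoE-/- 5, which was the only overlap. By edgeR's test the log2 fold change was -0.76 (SE 0.27, adjusted p = 0.31) by title and -0.00 (SE 0.36, adjusted p = 1.00) by genotype entry.

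Npc2 binds the freed cholesterol and passes it to Npc1 in the lysosomal membrane. The FPKM of Npc2 was 21.43, 33.21, 34.53, 39.23 and 17.98 in ApoE-/- 1 to 5 and 24.29, 13.21 and 12.69 in ApoE-/-NPRC-/- 1 to 3. ApoE-/-NPRC-/- 1 exceeded ApoE-/- 1 and 5, and the log2 fold change was -0.81 (SE 0.34, adjusted p = 0.35).

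For Npc1 the FPKM was 8.82, 8.97, 11.97, 11.67 and 7.84 in ApoE-/- 1 to 5 and 7.92, 6.55 and 5.38 in ApoE-/-NPRC-/- 1 to 3. ApoE-/- 5 and ApoE-/-NPRC-/- 1 were nearly equal, and the log2 fold change was -0.57 (SE 0.22, adjusted p = 0.32). Under the genotype entry, Npc2 had -0.09 and Npc1 -0.07. Stard4, a cytosolic sterol carrier, had 0.71 to 1.06 FPKM in ApoE-/- and 0.56 to 0.86 in ApoE-/-NPRC-/-.

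Storage and release of cholesteryl ester involves enzymes that work in opposite directions, and both were lower by title. Soat1, which esterifies cholesterol into droplets, had an FPKM of 14.10, 11.77, 17.86, 18.74 and 10.72 in ApoE-/- 1 to 5 and 12.22, 7.80 and 7.04 in ApoE-/-NPRC-/- 1 to 3. Its log2 fold change was -0.70 (SE 0.28, adjusted p = 0.33), with ApoE-/-NPRC-/- 1 inside the range of the ApoE-/- libraries.

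Nceh1, a hydrolase that takes ester apart again in macrophages, had an FPKM of 10.93, 9.96, 14.37, 17.06 and 7.42 in ApoE-/- 1 to 5 and 9.47, 3.97 and 3.92 in ApoE-/-NPRC-/- 1 to 3. It had the widest range of the 36 genes, 4.35 times between the highest and the lowest library. The log2 fold change was -1.06 (SE 0.39, adjusted p = 0.32) by title, a fold of 0.481, and -0.01 (SE 0.51) by genotype entry. ApoE-/-NPRC-/- 1 was above ApoE-/- 5, so the groups overlapped.

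The efflux group held the most abundant of the 36 genes per length, Pltp, with a mean of 78.5 FPKM over the 8 libraries, followed by Abcg1 with 33.0. Pltp is an LXR target that transfers phospholipid between lipoproteins. Its FPKM was 78.03, 92.79, 129.5, 118.27 and 65.97 in ApoE-/- 1 to 5 and 62.87, 46.48 and 34.33 in ApoE-/-NPRC-/- 1 to 3. Each ApoE-/-NPRC-/- library lay below each ApoE-/- library. Pltp was the only gene of the 34 without overlap in TMM-scaled log2 CPM, where 3.69% of all loci were lower without overlap. In FPKM, 4 of the 34 were (Pltp, Nr1h3, Insig2 and Msmo1), beside 4.37% of all loci. Its log2 fold change was -1.02 (SE 0.30, adjusted p = 0.27), a fold of 0.492, by title and -0.15 (SE 0.44, adjusted p = 1.00) by genotype entry.

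Abcg1 exports sterol to mature high-density lipoprotein. Its FPKM was 34.14, 33.99, 52.60, 56.99 and 24.30 in ApoE-/- 1 to 5 and 31.62, 16.67 and 13.37 in ApoE-/-NPRC-/- 1 to 3. ApoE-/- 3 and 4 were far above the rest, and ApoE-/-NPRC-/- 1 lay above ApoE-/- 5. The log2 fold change was -0.99 (SE 0.38, adjusted p = 0.33).

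Abca1, which loads sterol and phospholipid onto lipid-poor apolipoprotein A-I, had an FPKM of 27.98, 24.47, 32.64, 37.46 and 17.65 in ApoE-/- 1 to 5 and 22.06, 20.39 and 14.02 in ApoE-/-NPRC-/- 1 to 3. The lowest ApoE-/- library lay below 2 of the ApoE-/-NPRC-/- libraries, and the log2 fold change was -0.58 (SE 0.30, 95% interval -1.25 to 0.09, adjusted p = 0.42).

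Of the LXR genes, Nr1h3, the form abundant in macrophages, had an FPKM of 3.34, 4.22, 3.55, 3.98 and 3.35 in ApoE-/- 1 to 5 and 3.23, 2.53 and 2.14 in ApoE-/-NPRC-/- 1 to 3. The groups did not overlap in FPKM but did in TMM-scaled log2 CPM. For this locus the log2 fold change was -0.47 (SE 0.16, adjusted p = 0.31). It also carries Madd and Gm13783, whose reads cannot be separated from those of Nr1h3. Nr1h2, the widely expressed form, had 8.03 to 10.39 FPKM in ApoE-/- and 8.50 to 11.25 in ApoE-/-NPRC-/-, with a log2 fold change of 0.01 (SE 0.15, 95% interval -0.33 to 0.35). The difference between Nr1h3 and Nr1h2 was not tested.

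Apoe, the ligand for uptake of remnant lipoproteins, is deleted in both groups and shares its locus with Tomm40. This locus had an FPKM of 2.47, 3.22, 2.40, 2.56 and 2.52 in ApoE-/- 1 to 5 and 3.06, 3.38 and 2.33 in ApoE-/-NPRC-/- 1 to 3. The values were low and the groups overlapped, with a log2 fold change of 0.17 (SE 0.15, adjusted p = 0.64). Reads of Apoe and Tomm40 could not be told apart.

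**Figure D3:**
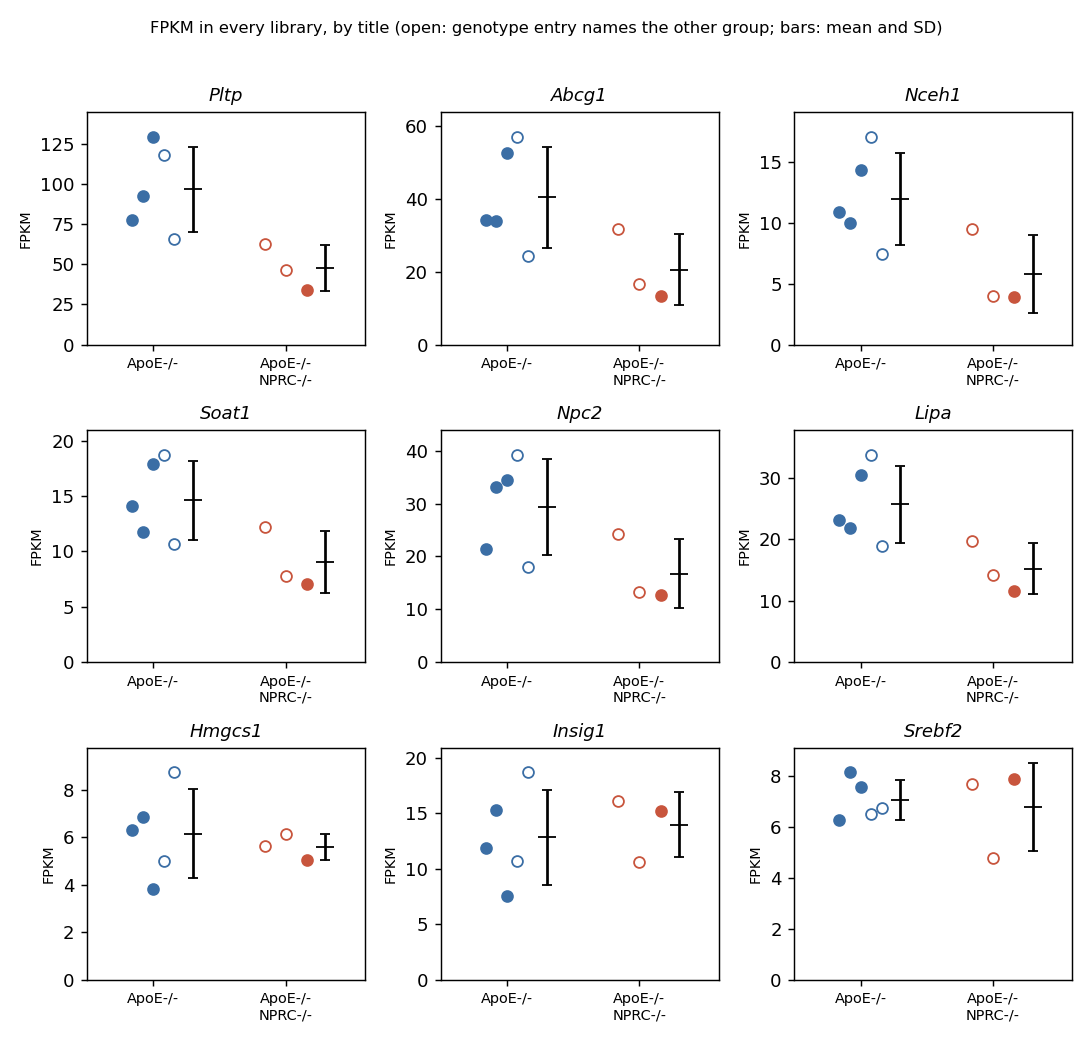
FPKM (y axes, from 0) of 9 genes in each library, by title (blue ApoE-/-, red ApoE-/-NPRC-/-), with the mean and SD of each group as black bars. Open circles are libraries whose genotype entry names the other group. Pltp has no overlap, with 34.33 to 62.87 against 65.97 to 129.5, while Hmgcs1, Insig1 and Srebf2 overlap throughout.

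Across libraries, the lysosomal, storage and efflux genes were most often highest and lowest in the same libraries. In TMM-scaled log2 CPM, ApoE-/- 4 was the highest library for 7 of the 12 and ApoE-/-NPRC-/- 3 the lowest for 7. On the same scale, the highest library among the 17 synthesis enzymes was most often ApoE-/- 2, for 5. The lowest was most often ApoE-/-NPRC-/- 2, for 6. Counts on the FPKM scale differ from these. In FPKM, the ratio of the highest library to the lowest had a median of 2.67 for the 12 genes. It was 1.64 for the 7 sensing and uptake genes and 1.55 for the 17 enzymes.

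In the 4 libraries whose title and entry name the same genotype, ApoE-/-NPRC-/- 3 had a lower FPKM than all 3 ApoE-/- libraries for 10 of the 11 tested lysosomal, storage and efflux genes, Nr1h2 being the exception. The same held for 5 of the 16 synthesis enzymes, for 4 of the 7 sensing and uptake genes and for 37.3% of all loci. With 1 library on one side these are values with no test. The 4 libraries are also part of the comparison by title, and the 10 genes include the locus that Apoe shares with Tomm40.

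The count of 8 lower genes rests on few libraries. Without ApoE-/-NPRC-/- 2 it was 1, and without ApoE-/-NPRC-/- 3 it was also 1, Pltp in both cases. Without ApoE-/- 3, and again without ApoE-/- 4, it was 4 (Lipa, Nceh1, Nr1h3 and Pltp). The log2 fold change of Pltp stayed between -1.25 and -0.84 over the alternatives other than the genotype entry.

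Macrophage markers moved with these genes. By title, all 12 markers had a log2 fold change below 0, with a median of -1.23. At an unadjusted p under 0.05, 7 of the 12 were lower, beside 7.13% of all loci. The summed FPKM of the markers was 751 to 2327 in ApoE-/- and 352 to 1173 in ApoE-/-NPRC-/-, and no marker was at 0 in any library. Within this sum, Lyz2 alone had 477.85 to 1543.97 FPKM in ApoE-/- and 219.68 to 807.4 in ApoE-/-NPRC-/-. The locus of Cd68 carries 8 names, among them Senp3 and Eif4a1. The mean log2 CPM of the markers was 6.73, 7.28, 7.80, 7.75 and 6.31 in ApoE-/- 1 to 5 and 6.84, 5.69 and 5.50 in ApoE-/-NPRC-/- 1 to 3. The mean log2 CPM of the 11 lysosomal, storage and efflux genes was 7.03, 7.16, 7.57, 7.64 and 6.75 and then 7.01, 6.51 and 6.34, so ApoE-/- 3 and 4 were highest and ApoE-/-NPRC-/- 2 and 3 lowest on both lists. The mean of the synthesis enzymes stayed between 3.65 and 3.99. In whole tissue, fewer cells of a type and less RNA per cell cannot be told apart, and the part of the macrophage markers in the values above was not tested.

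Other cell types differed by title as well. Over all loci, 7.13% were lower and 6.51% higher at an unadjusted p under 0.05. Smooth muscle markers were higher, 9 of 10 at that threshold, with a median of 0.64. Their summed FPKM was 1353 to 1806 in ApoE-/- and 1753 to 2995 in ApoE-/-NPRC-/-. Fibroblast markers had a median of -0.61, all 10 below 0 and 2 of them at an unadjusted p under 0.05. Their mean log2 CPM was also highest in ApoE-/- 3 (8.82) and lowest in ApoE-/-NPRC-/- 2 (7.49) and 3 (7.96). Schwann cell markers had a median of -0.63, all 7 tested below 0 and 4 of them at that threshold. Their summed FPKM did not overlap, with 32.6 to 40.9 in ApoE-/- and 25.2 to 29 in ApoE-/-NPRC-/-. Endothelial markers had a median of -0.07, with 1 of 10 higher at an unadjusted p under 0.05. No marker of white fat (median -0.27, 9 tested), brown fat (0.39, 10 tested), skeletal muscle (0.99, 4 tested) or red blood cells (-1.15, 3 tested) passed that threshold with edgeR. By genotype entry the median of the macrophage markers was -0.17 and that of the smooth muscle markers 0.17, with 0 at an unadjusted p under 0.05 in both lists. The part of these cell types in the values of the 36 genes was not tested.

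**Figure D4:**
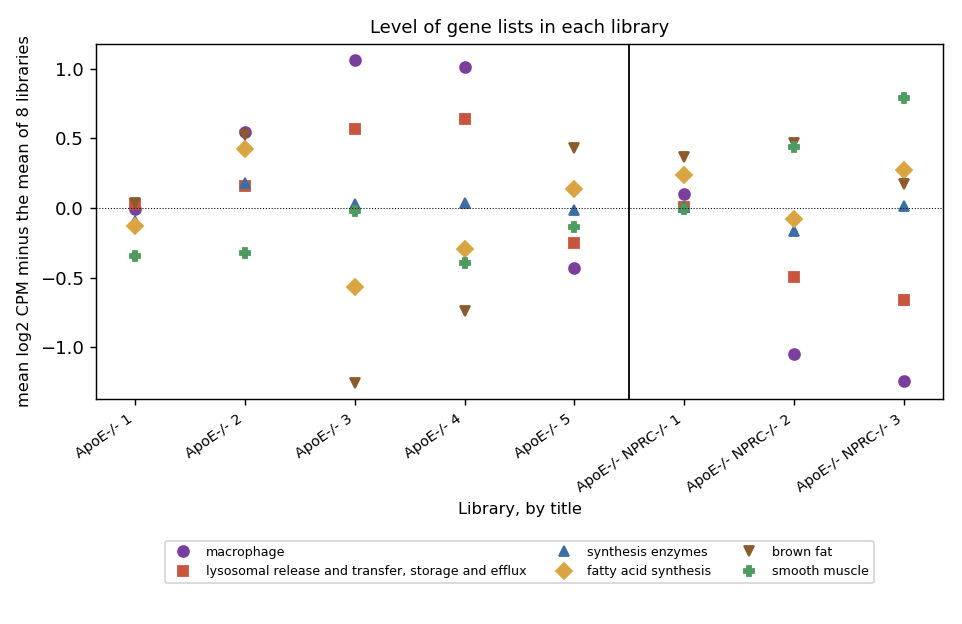
Mean log2 CPM of 6 gene lists in each of the 8 libraries (x axis, by title), minus the mean of the list over the 8 libraries (y axis). Macrophage markers and the lysosomal, storage and efflux genes are both highest in ApoE-/- 3 and 4 and lowest in ApoE-/-NPRC-/- 2 and 3, while the synthesis enzymes stay near 0.

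The rest of the pathway was read from 5 lists of 61 further genes, of which 55 were tested. By title, 4 of the 55 were lower and 1 was higher at an unadjusted p under 0.05, beside 7.13% and 6.51% of all loci, and 0 had an adjusted p under 0.05 with edgeR. Among the scavenger and lipoprotein receptors, 1 of 9 was lower at that unadjusted threshold. This was Stab1, a scavenger receptor of macrophages and sinusoidal endothelium, with 20.71 to 25.56 FPKM in ApoE-/- and 14.74 to 20.98 in ApoE-/-NPRC-/- and a log2 fold change of -0.38 (SE 0.16, adjusted p = 0.35).

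Sterol transfer proteins held 3 of the 5. Gramd1b, an endoplasmic reticulum protein that draws cholesterol from the plasma membrane, had an FPKM of 3.58, 3.76, 2.67, 4.40 and 3.23 in ApoE-/- 1 to 5 and 2.20, 2.01 and 2.28 in ApoE-/-NPRC-/- 1 to 3. Its groups did not overlap, and the log2 fold change was -0.68 (SE 0.17, adjusted p = 0.26 with edgeR and 0.027 with DESeq2). By genotype entry it was 0.25. Stard5, a sterol and bile acid carrier, had 2.62 to 3.31 FPKM in ApoE-/- and 2.02 to 2.42 in ApoE-/-NPRC-/-, without overlap, and a log2 fold change of -0.34 (SE 0.14, adjusted p = 0.33). Osbpl2, an oxysterol-binding relative, had 2.26 to 2.84 FPKM in ApoE-/- and 3.01 to 3.63 in ApoE-/-NPRC-/-, also without overlap, and a log2 fold change of 0.33 (SE 0.11, adjusted p = 0.31). In TMM-scaled log2 CPM, 2 of the 55 genes were lower without overlap and 1 was higher. Over all loci, 3.69% were lower without overlap, and the share higher is not given here.

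Cyp7b1, which hydroxylates oxysterols, had a log2 fold change of -1.58 (SE 0.55, adjusted p = 0.31), with 0.73 to 2.19 FPKM in ApoE-/- and 0.22 to 0.90 in ApoE-/-NPRC-/-. It was the only one of the 11 tested oxysterol, droplet and efflux genes past the threshold. None of the 12 genes of the isoprenoid branch and sterol regulation passed it (median -0.22), and none of the 13 of fatty acid synthesis (median 0.30, 9 of 13 above 0). Summed, the fatty acid synthesis genes ran from 751 FPKM in ApoE-/- 3 to 2954 in ApoE-/- 5, and the brown fat markers from 139 to 663 in the same libraries. Scd1 alone had 486.92 and 2440.46 FPKM in these libraries. By mean log2 CPM the fatty acid synthesis genes ran from 7.27 in ApoE-/- 3 to 8.26 in ApoE-/- 2. The summed white fat markers ran from 147 FPKM in ApoE-/- 3 to 683 in ApoE-/- 2. By genotype entry, 0 of the 55 had an unadjusted p under 0.05 with edgeR.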

How the data were processed

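Poly(A) RNA of whole aorta was sequenced in 8 libraries. The submitters' processing notes name cutadapt 1.9, FastQC and GRCm38, and the study's methods name HISAT2 and StringTie. The authors deposited the whole-number count of each assembled locus per library, not normalized, and deposited FPKM values, scaled by the authors to transcript length and mapped fragments. The library kit marks strand, and whether the counting used strand is not given in the sources used here. Every column of values was matched to a library, with 0 left over. All 36 loci overlapped their GENCODE M21 gene on the same strand.

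The 20506 loci at 1 FPKM or more in 3 or more libraries entered the fit on counts with R 4.3.3 and edgeR 4.0.16 (TMM, quasi-likelihood, Benjamini-Hochberg adjustment over all loci), grouped by title and again by genotype entry. Log2 CPM used a prior count of 2. Total counts were 62969165 to 86693276, and the number of libraries limits the precision (biological coefficient of variation 0.327). DESeq2 1.42.0, limma 3.58.1 on log2(FPKM + 1), pseudocount, scaling, filters, locus choice, a replicate block and leaving out each library were alternatives. The genes and the marker and pathway lists were chosen with earlier results of these data known. Values in every library are given for those of the 36 genes with an unadjusted p under 0.05 or without overlap by title and for 12 listed genes (Srebf2, Srebf1, Insig1, Hmgcs1, Sqle, Vldlr, Npc2, Lipa, Soat1, Abca1, Abcg1 and Apoe). From each other pathway list, up to 3 genes with the smallest p under 0.05 are named, with their ranges or values. The LXR motif was chosen after seeing the data.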

Additional observations from a re-analysis of the deposited data

Results flagged for a closer look

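Of 90 groups of 5 libraries examined for a library that stands apart from the others by Dixon's criterion, 3 had one, and chance alone gives 1 in 20, or 4.5. All 3 were among the libraries entered as ApoE-/-. In ApoE-/-NPRC-/- 2, the log2 CPM of Mvd, the decarboxylase of the mevalonate pathway, was 0.98, and the nearest of the other 4 was 1.89. In the same library Stard4, the sterol carrier, had a log2 CPM of 2.83 with the nearest at 3.27. The brown fat markers had a mean log2 CPM of 4.07 in ApoE-/- 3, and the nearest other library was at 5.36.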

How the results depend on the processing

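For the 8 genes lower by title at an unadjusted p under 0.05, the direction held in every alternative run. By genotype entry, however, the differences were near 0 and Lipa had -0.00. Their number was 13 (with 1 higher) with limma and library weights, 0 by genotype entry and 1 to 10 when a library was left out (0 to 2 higher). By genotype entry, leaving out a library gave 0 to 1 lower. The 34 genes had 1 adjusted p under 0.05 with DESeq2 and 6 with library weights. Of the 20506 loci tested, 712 had a fold above 2 or below 0.5 and an unadjusted p under 0.05. This number was 175 with limma, 95 by genotype entry and 403 to 1635 when a library was left out. It was 1738 with filterByExpr and 2287 without a filter, but those runs tested other sets of loci, so these counts have another denominator. Among the 55 other pathway genes, the numbers lower and higher (4 and 1) were 18 and 2 with library weights, 0 and 0 by genotype entry, and 1 to 12 and 0 to 2 when a library was left out. The number higher was also 2 with DESeq2 and 2 without a filter. At an unadjusted p under 0.05, the share of all loci is given only for the main edgeR runs by title and by genotype entry. Counts from the other runs at that threshold have no such share beside them. With library weights 5.7% of all loci had an adjusted p under 0.05, against 0% in the main run by title.

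Whether the replicate numbers shared by the titles pair the libraries was not settled. In the 6 libraries numbered 1 to 3, the correlations of same-numbered deviations from the group mean were -0.314, -0.113 and 0.007. Those of differently numbered libraries ran from -0.16 to 0.23. With 3 libraries per group, such correlations cannot exclude a pairing. At an unadjusted p under 0.05, 3 genes were lower with the number as a block in these 6 libraries (Lipa, Nceh1 and Pltp). Without the block there were 8. Of the other pathway genes, 2 were lower and 0 higher with the block.

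Signs changed for the genes below, of which only Gramd1b had an unadjusted p under 0.05 by title. By title the log2 fold change was -0.68 for Gramd1b, -0.41 for Ebp, -0.30 for Msmo1 and -0.26 for Insig2, and nearer 0 for the others. By genotype entry the log2 fold change was 0.14 for Hmgcs1, -0.20 for Mvk, 0.10 for Pmvk, 0.02 for Sqle, -0.13 for Lss, 0.02 for Cyp51, 0.02 for Tm7sf2, 0.03 for Msmo1, 0.15 for Ebp, 0.05 for Dhcr7, 0.07 for Srebf2, 0.03 for Insig2, -0.02 for Nr1h2, -0.20 for Apoe and 0.25 for Gramd1b. In the 4 libraries with undisputed labels it was -0.19 for Mvk, 0.24 for Pmvk, 0.04 for Sqle, 0.20 for Srebf2, -0.04 for Nr1h2 and -0.11 for Apoe. Library weights gave -0.02 for Mvk, -0.01 for Fdft1 and -0.09 for Nr1h2, and limma gave -0.01 for Nr1h2 with either pseudocount. In the 6 numbered libraries, Hmgcs1 had 0.01 without and 0.04 with the block, and Mvk -0.03 without and -0.01 with it. Leaving out a library gave -0.20 to 0.04 for Hmgcs1, -0.08 to 0.17 for Mvk, -0.19 to 0.10 for Pmvk, -0.11 to 0.32 for Fdft1, -0.12 to 0.01 for Sqle, -0.19 to 0.09 for Tm7sf2, -0.02 to 0.21 for Nsdhl, -0.23 to 0.06 for Srebf1, -0.18 to 0.20 for Srebf2 and -0.11 to 0.11 for Nr1h2. The causes were not tested.

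The number of libraries, 5 against 3, and the label conflict limit every comparison. Tests by genotype entry with DESeq2, limma or a library left out were chosen after seeing the data.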
